A study of Mus musculus with 2 samples.

Results

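miR-21 (mmu-miR-21 on the array) was followed in G2N2C, a line of mouse basal cell carcinoma, after D3 had been interfered with. D3, the type 3 deiodinase, is encoded by Dio3 and inactivates thyroid hormone. The miRNA was chosen by name, and it was known to differ strongly between the conditions, so its values are given as a description with no test. It has 1 probe on the array, and it is 1 of 373 mouse miRNAs for which the authors' deposited table gives a fold change. No probe named for its other arm, miR-21*, was found, and neither of the 2 mismatch probes belongs to it. The compared groups were a D3-interfered pool (cells transfected with the Stealth-D3 oligonucleotide) and a control pool (the same cells transfected with Stealth-ctr). Both were grown in low calcium with keratinocyte growth factor and 8% chelated fetal serum and collected 48 h after transfection, and each pool held RNA of 3 experiments. The model is thus a single cell line. The pair of pools was hybridised on 2 arrays with locked nucleic acid probes, with the D3-interfered pool in Cy3 and the control pool in Cy5 on the first array, and the dyes exchanged on the second. There is therefore 1 replicate per condition, every SD below is technical, over both arrays, and no p-value between conditions was computed. As the dyes were exchanged between the arrays, each SD also holds the dye's part of the ratio and is not array noise alone.

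miR-21 is one of the best known oncogenic miRNAs. Its mature strand represses growth-restraining transcripts such as Pdcd4, an inhibitor of translation, and in squamous cell carcinoma it also represses Grhl3, a factor of keratinocyte differentiation. Mice without miR-21 form fewer chemically induced skin tumours. Like other miRNAs it recognises its targets mainly through the seed, bases 2 to 8 counted from the 5′ end.

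The array's name miR-21 predates the lettered names, and RefSeq lists the strand as miR-21a-5p on mouse GRCm38.p6. It lies at chr11:86584120-86584141 on the minus strand, in the Mir21a gene, which falls within the span of the protein-coding gene Vmp1 on the same strand. The sequences below show what the probe was named for and which RefSeq miRNAs come closest to it, with the seed in capitals.
miR-21a-5p: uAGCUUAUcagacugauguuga
miR-21c: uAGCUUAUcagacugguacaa
miR-21b: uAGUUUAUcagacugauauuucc
miR-3967: aGCUUGUCugacugauguug
miR-21a-3p: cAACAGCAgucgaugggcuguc
Among 1679 mature mouse miRNAs in the RefSeq table, 2 carry the seed of miR-21a-5p, itself and miR-21c. miR-590-5p is not among these sequences, so the count does not cover it. miR-21c, from chr8:128278188-128278208 (minus strand), differs from miR-21a-5p at 5 positions, all in its 3′ part (A16G, G18A, U19C, U20A and G21A, counted from the 5′ end with the base of miR-21a-5p first). miR-21b, from chr3:29636768-29636790 (plus strand), differs at 4 positions, C4U inside the seed and G18A, G21U and A22C outside it. Aligned without gaps, and with a shift of up to 6 bases, miR-21b matches 18 of the 22 bases of miR-21a-5p and miR-21c matches 16. Outside this family the closest was miR-3967, from chr2:22654321-22654340 (plus strand), with 18 matching bases, while the median over 1676 mature miRNAs was 8. Neither miR-21b, miR-21c nor miR-3967 has a probe named for it. Probe sequences were not used here, so the share of the miR-21 signal that came from these relatives was not tested.

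The hairpin, at chr11:86584067-86584158 on the minus strand, is shown with both mature arms in capitals, the measured 5′ arm first and the unmeasured 3′ arm second.
Mir21a hairpin: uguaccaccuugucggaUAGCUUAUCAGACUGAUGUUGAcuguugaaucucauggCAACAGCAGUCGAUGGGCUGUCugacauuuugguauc

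miR-21 differed between the D3-interfered and the control pool on both arrays. In the dye order of the deposited values, its log2 ratio was -3.08 on array 1 and 4.12 on array 2. The sign changed when the dyes were exchanged. The part that kept its sign with the dye, the mean of both values in dye order, was 0.52. After the sign of the first array was exchanged, the values were 3.08 and 4.12, or 8.46-fold and 17.4-fold. The mean of mmu-miR-21 was 3.60 ± 0.73 (technical SD, 2 arrays). This SD and the 0.52 above come from the same sum of both values in dye order, so they are not separate facts. If the deposited ratios are log2, as they are read here, the pools differed 12.1-fold. The authors' deposited table gives a smaller log2 fold change of 2.73, or 6.62-fold. Neither the labels nor the file headers state which dye is divided by which. If red is divided by green, miR-21 was higher in the D3-interfered pool; if green is divided by red, it was higher in the control pool. Values are therefore described as on the side of miR-21 (positive) or on the opposite side (negative).

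miR-21 had the largest mean difference of the 373 mouse miRNAs in absolute size, and also of all 2244 features of the value table. In the authors' deposited table it had the largest absolute log2 fold change of 1677 probes, and its unadjusted p-value of 2.68e-07 was the second smallest. What served as replicates for that p-value is not stated, so nothing rests on it. On each array alone miR-21 took place 2 among the mouse miRNAs by absolute size. On the first array the farthest was miR-691, with -3.31, which had 1.05 on the second. On the second array it was miR-433*, with 4.22, which had 0.33 on the first. miR-21 was thus the single mouse miRNA with at least 2 on both arrays. miR-143, miR-138 and miR-685 were the other 3 with at least 1 on both arrays, and 4 miRNAs had -1 or less on both.

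A rule of size asked for equal signs on both arrays and a mean of at least 1.5-fold. By it 33 mouse miRNAs including miR-21 passed on its side (8.85% of 373) and 12 passed on the opposite side (3.22%). With a smooth trend on average intensity removed from each array, 30 passed on the side of miR-21 (8.04%) and 20 opposite (5.36%). By the fold changes of the authors' deposited table, 1.5-fold was reached by 14 on its side (3.75%) and by 21 opposite (5.63%). More thus passed on the side of miR-21 in the first 2 sets, and more opposite in the authors' deposited table. The count from that table makes no demand on signs. Without that demand, the deposited arrays gave 40 on the side of miR-21 and 18 opposite. miR-21 itself stayed in first place in these 3 sets. As miR-21 was chosen for its difference, its own passing adds nothing to these counts.

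The next 6 miRNAs in size with the same sign on both arrays were well below miR-21. miR-433*, from the imprinted region between Dlk1 and Dio3, had a mean of 2.27 ± 2.75, which rested on its second array, and its log2 fold change in the authors' deposited table is 0.11. miR-143, which marks fibroblasts and smooth muscle, had 1.75 and 2.36 on the arrays. miR-21 exceeded miR-143 by 1.33 on the first array and by 1.75 on the second, and by 1.45 in the authors' deposited table. The remaining 4 were divided between the sides. miR-688 had -1.62 ± 0.62 and miR-370, also from the Dlk1-Dio3 region, had -1.47 ± 0.51. On the side of miR-21, miR-138 had 1.45 ± 0.37 and miR-30a had 1.31 ± 1.10. The arrays of miR-21 (3.08 and 4.12) did not overlap those of any of the 6 except on the second array of miR-433*.

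**Figure D1:**
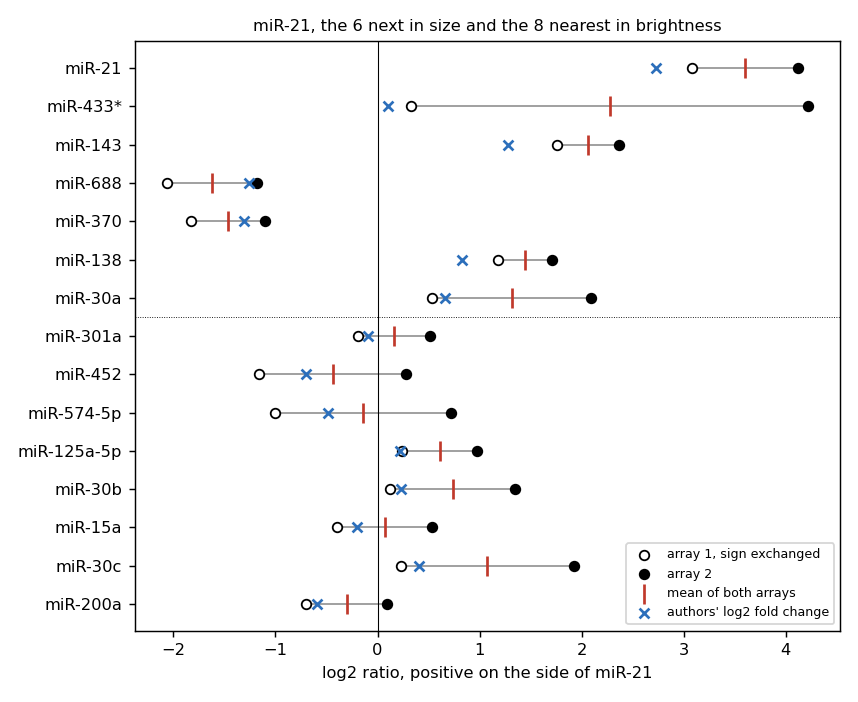
Log2 ratios of miR-21, of the 6 mouse miRNAs next in absolute mean among those with equal signs on both arrays, and, under the dotted line, of the 8 nearest to it in average intensity; positive values lie on the side of miR-21. Open circles are array 1 with its sign exchanged, filled circles array 2, red bars their mean and blue crosses the log2 fold change of the authors' deposited table; both arrays of miR-21, at 3.08 and 4.12, lie right of both arrays of every other miRNA drawn except array 2 of miR-433*.

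The miRNAs whose pair of array values lay nearest to that of miR-21 were sought by Euclidean distance over the 2 arrays. None was close: miR-21 lay 5.14 from the origin, and the nearest, miR-143, was still 2.20 away. miR-433* followed at 2.76, miR-138, a miRNA linked to keratinocyte senescence, at 3.06 and miR-30a at 3.25. The other 4 were miR-378, encoded within Ppargc1b, at 3.35, miR-542-5p at 3.37, miR-685 at 3.45 and miR-26a at 3.54. All 8 lay on the side of miR-21 on both arrays. With the trend removed, 7 of these 8 were again among the nearest, and miR-99b took the place of miR-26a. Only 2 of the 8, miR-30a and miR-26a, were brighter than miR-21, with average log2 intensities of 10.4 and 10.2.

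**Figure D2:**
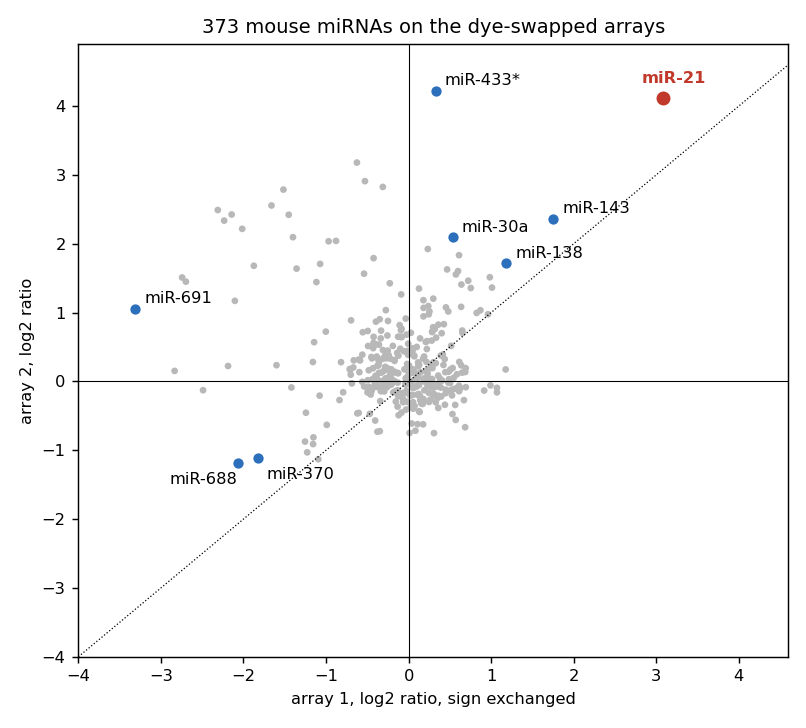
Each point is 1 of 373 mouse miRNAs, with its log2 ratio on array 1 (sign exchanged) on the x axis and on array 2 on the y axis; the dotted line marks equal values. miR-21, in red at 3.08 and 4.12, stands alone in the upper right, with miR-143 (1.75 and 2.36) the nearest labelled point, while miR-433* and miR-691 are far out on a single array.

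miR-21 was among the brighter mouse miRNAs, with 87.9% of them at or below its intensity, but was not the brightest. Its average log2 intensity was 9.71, place 46 of 373, where the brightest mouse miRNA reached 14.7 and the median was 7.16. If that average is the mean of both pools, a reading the table's header does not settle, the pools lay at 11.1 and 8.35 by the authors' log2 fold change, or at 11.5 and 7.91 by the mean of the arrays. The lower of these levels would still lie above the brightest probe without a fold change, at 6.99. Of the mouse miRNAs, 77.2% had an average intensity at or below 8.35 and 70.2% at or below 7.91.

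The deposited ratios rose with brightness on both arrays in the dye order, so probes as bright as miR-21 were shifted by the dye. At its intensity the fitted trend was 0.53 on array 1 and 0.82 on array 2. Without the trend miR-21 had 3.62 and 3.30, with a mean of 3.46 ± 0.22 (technical SD, 2 arrays), or 10.99-fold. The array with the higher value changed, the gap between the arrays narrowed to -0.32 with the trend removed, against 1.04 as deposited (second minus first), and the mean moved by less than the technical SD. As deposited, 56 of the 372 other mouse miRNAs had a larger technical SD than miR-21, and with the trend removed 209 did. As this SD holds the dye's part, these counts do not rank the probes by noise.

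The 8 mouse miRNAs nearest in average intensity, from 9.55 to 9.90, show what probes of that brightness did. On the first array they ran from -1.16 to 0.24 after the sign was exchanged, against 3.08 for miR-21. On the second array they ran from 0.10 to 1.92, against 4.12 for miR-21. miR-21 thus lay outside the range of its equals in brightness on both arrays. As it was chosen for its difference, this is a description, and a part of the dye in that difference was not tested. Of the 8, 5 had opposite signs on the arrays and 3 passed the rule, all of them towards miR-21: miR-30c with 1.08 ± 1.20, miR-30b with 0.74 ± 0.86 and miR-125a-5p with 0.61 ± 0.52. With the trend removed 2 of the 8 had opposite signs and 2 passed, miR-30c towards miR-21 with 0.95 ± 0.31 and miR-452 opposite with -0.59 ± 0.03. The others were miR-301a, miR-15a, a repressor of cell cycle genes, miR-574-5p and miR-200a, which helps to maintain the epithelial state. Their authors' log2 fold changes ran from -0.70 to 0.41 over the 8, against 2.73 for miR-21 in the same deposited table.

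**Figure D3:**
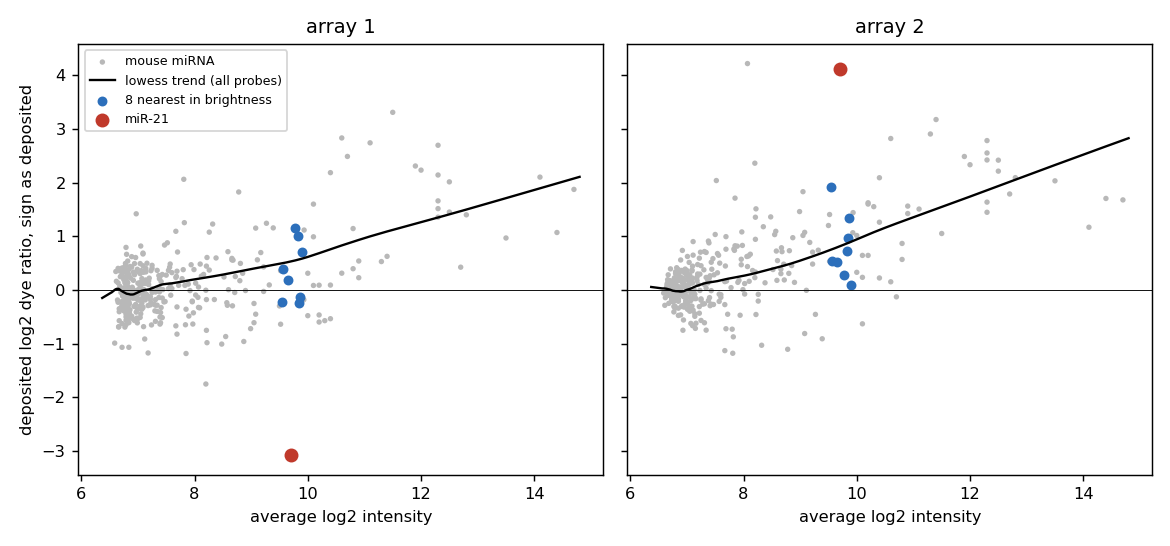
Deposited log2 dye ratio (y axis, sign as deposited) against average log2 intensity (x axis) for 373 mouse miRNAs on each array, with the lowess trend over all probes as a black line. miR-21, in red, is at -3.08 on array 1 and at 4.12 on array 2, on different sides of the rising trend. The 8 miRNAs of like brightness, in blue, lie closer to the trend, the farthest being miR-30c, 1.17 above it on array 2.

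The cross-check with probes for other species could not be made as intended. All 1586 near-homologue probes carry the same name, which states only that they were not designed for mouse, so none can be tied to miR-21 or miR-590. miR-590-5p shares its seed with miR-21 in other mammals. Its mouse sequence was not among those compared, so a shared seed in mouse was neither shown nor excluded. It has a mouse probe, as does the opposite arm, miR-590-3p. miR-590-3p had 0.07 and 0.14 on the arrays, with an average log2 intensity of 6.79. miR-590-5p had -0.23 and -0.08, an average log2 intensity of 6.64 and no fold change in the authors' deposited table. Both were as dim as probes without a fold change, and at that brightness a value near 0 does not show equal levels in the pools.

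Other oncogenic miRNAs were set beside miR-21. Since miR-21 had the largest mean difference of all features, no list could hold a member of its size. Of 21 measured, 3 passed the rule on its side and none opposite, with a median of 0.27, beside 33 and 12 of 373 and a median of 0.08 over all mouse miRNAs. Those 3 were miR-222 with 1.05 ± 0.82, miR-221 with 0.97 ± 0.01, a pair that represses the cell cycle inhibitor Cdkn1b, and miR-106a with 0.63 ± 0.54, of a cluster related to miR-17-92. miR-106a did not pass with the trend removed, at 0.55. The lowest was miR-10b with -0.31. The sign of the list's median differed between the arrays, with -0.12 and 0.53. miR-31, miR-155 and miR-24, other miRNAs raised in many tumours, had 0.35, 0.39 and 0.48 and did not pass. The bright miR-31 and miR-24 had opposite signs on the arrays, where the trend was large. With the trend removed they had 0.07 and 0.22 and did not pass either.

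Among 30 tumour-suppressive miRNAs 5 passed opposite to miR-21 and 2 on its side, beside 3.22% and 8.85% of all mouse miRNAs, with a median of 0.03. The 5 were miR-34c (-1.11), miR-34b-5p (-1.06) and miR-34a (-0.85), which are direct targets of p53, and miR-200c (-0.98) and miR-200b (-0.81), which repress Zeb factors. On the side of miR-21 were miR-143 with 2.06 and miR-101a, a repressor of Ezh2, with 0.68 ± 0.04. The remaining 23 did not pass, among them all 8 let-7 miRNAs of the list. let-7a, let-7b, let-7c and let-7d, at average log2 intensities of 12.0 to 12.5, had opposite signs on the arrays. The trend there was 1.26 to 1.41 on array 1 and 1.74 to 1.94 on array 2, so a smaller change could not pass. With the trend removed they had means between -0.19 and -0.11 and did not pass either. For the whole list the single arrays gave medians of -0.38 and 0.27, and the authors' deposited table gives -0.13.

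miRNAs tied to the regulators of the MIR21 gene were taken as further lists. In human cells AP-1 and STAT3 induce miR-21, and of 9 measured miRNAs also linked to these factors 2 passed on its side, miR-221 and miR-222, and none opposite (8.85% and 3.22% of all mouse miRNAs). The means ran from miR-17 with 0.07 to miR-222 with 1.05. Their median was 0.39, beside 0.08 over all mouse miRNAs, with 0.40 and 0.57 on the single arrays and 0.28 in the authors' deposited table. miR-31, miR-155 and miR-17 had opposite signs on the arrays, and miR-17 had -0.19 in the authors' deposited table. In human cells SMAD proteins also promote the processing of the miR-21 precursor. Of 7 measured miRNAs of that kind none passed on either side, against the same shares of all mouse miRNAs, from miR-215 with -0.24 to miR-23b with 0.63, and the median was 0.11. miR-23b was far apart on its arrays, with -1.52 and 2.79.

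Thyroid hormone is the substrate that D3 removes, so miRNAs linked to it were compared with miR-21. Of 15 measured 1 passed on its side, miR-378 with 1.25 ± 0.37, and none opposite, which is near the 8.85% and 3.22% of all mouse miRNAs. The median was 0.20, from miR-181d with -0.14 to miR-378, with -0.03 and 0.36 on the single arrays. The muscle miRNAs of that list, miR-1, miR-133a, miR-133b, miR-206 and miR-208, lay between -0.08 and 0.22, and miR-133a, miR-133b and miR-208 were dimmer than the median mouse miRNA.

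A RefSeq gene was found for 360 of the 373 mouse miRNAs, and 27 besides miR-21 have a gene on chromosome 11. Of these 5 passed on its side and 0 opposite, beside 8.85% and 3.22% of all mouse miRNAs, with a median of 0.12. They were miR-212 with 1.02 ± 0.54, miR-324-5p with 0.91 ± 0.12, miR-193 with 0.75 ± 0.64, miR-365 with 0.69 ± 0.06 and miR-340-5p with 0.68 ± 0.71. The highest mean, 1.26 for miR-22, came from -0.31 and 2.82 on the arrays and did not pass. With the trend removed miR-22 passed, with a mean of 1.07, and 6 of the 27 did. The lowest was miR-10a with -0.53. Next to Mir21a among the measured miRNA genes lie Mir365-2 and Mir193a on one side and Mir301 and Mir142 on the other. miR-301a had 0.16 ± 0.50, and both arms of miR-142, a blood cell miRNA, had -0.08 and -0.04. miR-365 also has a gene elsewhere, which the array cannot separate. The Vmp1 transcript was not measured on this array.

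The labelled cell line was set against miRNAs that mark keratinocytes and against those of other cell types. The epithelial miRNAs were detected, with average log2 intensities of 11.9 for miR-205, 10.1 for miR-200b, 9.90 for miR-200a and 9.39 for miR-141, while miR-203 was dim at 7.16. Of the 7 keratinocyte markers 3 passed opposite to miR-21 and none on its side, beside 3.22% and 8.85% of all mouse miRNAs. The median of the 7 was -0.33. Those that passed were miR-200b with -0.81 ± 0.25, miR-200c with -0.98 ± 0.24 and miR-141 with -1.03 ± 0.17. The others did not pass, with miR-203 at -0.33, miR-200a at -0.30 and miR-429 at -0.03. The highest and brightest, miR-205, had a mean of 0.09, from -2.31 and 2.49 on the arrays. On the first array the list had a median of -0.99, and on the second of -0.16. In a wider list of 16 skin-expressed miRNAs 4 passed opposite, miR-200b, miR-200c, miR-141 and miR-34a, and 1 on the side of miR-21, miR-378. The median of the wider list was -0.06, with -0.66 and 0.29 on the single arrays. Its highest member, miR-27b with 1.28, had opposite signs on the arrays, with -0.63 and 3.18. With the trend removed miR-27b (1.07) and miR-125b-5p (0.98) also passed, which gives 3 towards miR-21 and 4 opposite.

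Cells other than keratinocytes can also hold miR-21, so their markers are given beside it. Over all mouse miRNAs 8.85% passed on the side of miR-21 and 3.22% opposite. Of 5 fibroblast markers 1 passed on its side, miR-143, and the other 4 lay between 0.01 and 0.24, with a list median of 0.11. None passed of 6 blood cell markers (median 0.06; miR-223 highest with 0.58 and miR-142-3p lowest with -0.08), of 4 muscle markers (median 0.10, from -0.08 to 0.22) or of 4 neuron markers (median -0.06; miR-129-5p highest with 0.51 and miR-153 lowest with -0.18). The mean of miR-223 came from -0.88 and 2.04 on the arrays, and its log2 fold change in the authors' deposited table is -0.09. The blood cell markers were dim, from 6.67 to 7.52 on the average log2 intensity, and the fibroblast markers ran from 6.83 to 8.20. No marker in these lists was as bright as miR-21. The labels name a single cell line, and a part of other cells in the miR-21 difference was not tested. A different number of cells that hold miR-21 and a different amount of miR-21 per cell cannot be told apart in pooled RNA.

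**Figure D4:**
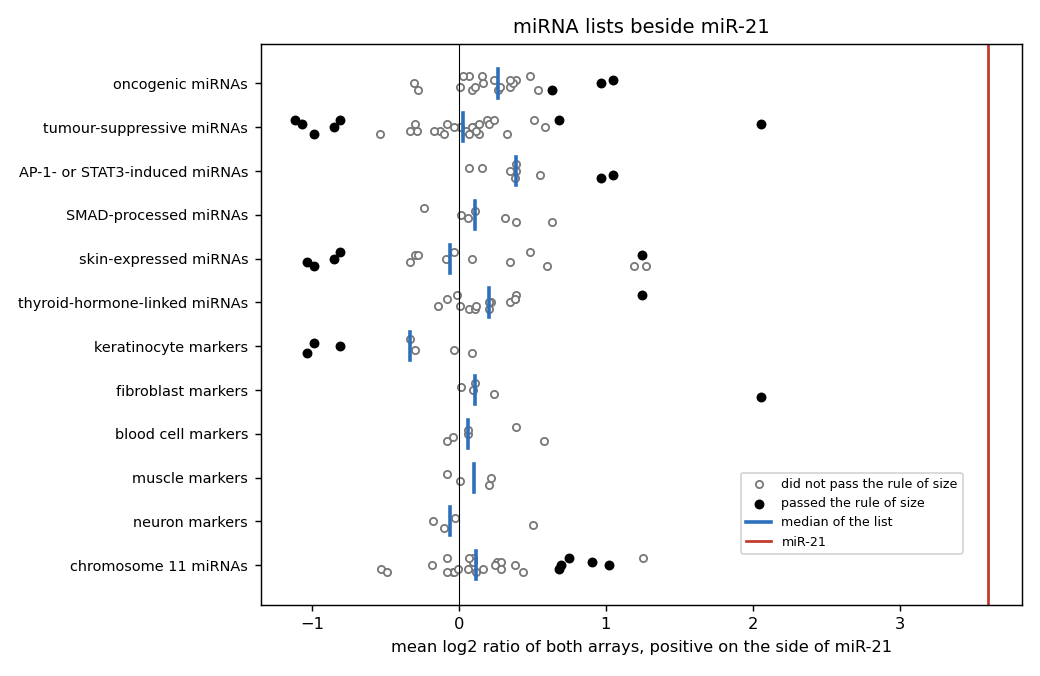
Mean log2 ratio over both arrays for the members of each miRNA list, miR-21 left out, with positive values on the side of miR-21. Filled points passed the rule of size (same sign on both arrays and at least 1.5-fold), blue bars are list medians, and the red line is miR-21 at 3.60; the nearest member of any list is miR-143 at 2.06.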

How the data were processed

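Total RNA of transfected G2N2C cells was extracted with Trizol, column-purified and labelled with Cy3 or Cy5, per the labels' protocols. For each array the authors deposited a processed dye ratio of 2244 features, with medians of 0.039 and 0.040. It was read here as log2, which was not tested. Its mean for miR-21, 3.60, was larger than the log2 fold change of 2.73 in their second table. The sources used here do not state the log base, centring, dye order or scanner processing. Per the file headers, the second table holds for 2101 probes an average log2 intensity, a log2 fold change, a signed fold change and a p-value without adjustment. In the deposited signed fold change (given here as a score column), a negative sign marks a ratio below 1. Precision is limited by having 2 arrays.

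The sign of array 1 was exchanged and both arrays were averaged. Of 422 mouse probes, 46 without a fold change were left out, and the other 376 give 373 miRNAs after averaging probes of 1 name. Trends were fitted by lowess (span 0.3, over all 2101 probes). The rule of size was also run on simulated arrays with the same trend and equal noise on both. The measured arrays differed in their trends, so no support for the rule is drawn from that run. Lists matched the array's name with or without an arm. miR-21, the lists and the rules were chosen with earlier results of these data known. Named are miR-21 and its relatives, the 6 next in size, the 8 nearest in pattern and in brightness, and list members that passed or lay at an end; others named were chosen after their values were seen. Alternatives were single arrays, median-centring, trend removal (spans 0.3 and 0.6), the authors' fold changes, a 2-fold threshold, no demand on signs, dim probes included, and brighter miRNAs only. Python 3.11.15, NumPy 2.4.6, pandas 2.3.3, statsmodels 0.14.6 and matplotlib 3.10.9 were used. Sequences are from RefSeq (GRCm38.p6).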

Additional observations from a re-analysis of the deposited data

How the results depend on the processing

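The mean of miR-21 was 3.60 and ran from 3.08 to 4.12 on the single arrays. It was 3.60 median-centred, 3.46 with the trend removed at either span and 2.73 in the authors' deposited table. The last value lay farther from 3.60 than the technical SD of 0.73, and the cause was not tested. A single array cannot lie that far off, because this SD is taken over the same 2 arrays. miR-21 stayed in first place except on each array alone, where it was in place 2. Its lead over the next miRNA, 1.33 as deposited and 1.42 in the authors' table, was -0.23 and -0.10 on the single arrays, so that miR-691 and miR-433* lay farther out there. The count on the side of miR-21, 33, was between 33 and 87 on the single arrays, 14 by the authors' fold changes and 15 at 2-fold. The opposite count, 12, was between 17 and 52 on the single arrays, 20 and 19 with the trend removed at spans of 0.3 and 0.6, 21 by the authors' fold changes and 7 at 2-fold. These counts were within 1.5 times of the reported ones under median-centring, no demand on signs, dim probes included and brighter miRNAs only. Of 72 list medians under the alternatives 65 moved by less than their technical SD and 7 by more, all on single arrays: the AP-1 and STAT3 list had 0.40 and 0.57, the SMAD list -0.051 and 0.14, the keratinocyte markers -0.99 and -0.16, the fibroblast markers 0.29 and 0.19, the neuron markers -0.041 and 0.080, and the chromosome 11 list 0.15 and 0.28. The SD of a list median is the spread between its 2 array medians, which also holds the dye's part. Lists with arrays far apart, as the tumour-suppressive list at -0.38 and 0.27, were thus held to a wider limit. The 65 of 72 therefore do not show that the medians are stable. The mean of near-homologue probes was not run, since none carries the name of a miRNA. No paired analysis was possible because 1 pair of pools was measured. Dim signal limits what values near 0 can show.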

Other observations

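Of 1230 near-homologue probes with a fold change, 1 had at least 2 on both arrays, as miR-21 did; the level was chosen after the values were seen. This probe, number 17400, had 2.40 on the first array with its sign exchanged and 2.36 on the second, an average log2 intensity of 7.97 and a log2 fold change of 1.67 in the authors' deposited table. Its mean with the trend removed was 2.35. The target it was designed for is not named, so it cannot be tied to miR-21.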
